A study of Mus musculus with 4 samples.

Results

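BATF and IRF transcription factors were followed across the leukocytes of B16 melanoma, a transplantable mouse melanoma line, in tumours of wild-type mice and of mice labelled as ATPIF1 knock-out. The members were chosen by name: Batf, Batf2, Batf3, Irf1, Irf4, Irf5, Irf7, Irf8 and Irf9, which are 9 of the 31053 genes in the count matrices. All 9 had a row in both matrices, and each was described in 17 cell classes gated on marker genes, none of which was a member.

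BATF proteins are small basic leucine zipper factors of the AP-1 family. They have no activation domain of their own and bind DNA with a JUN protein, and BATF, BATF2 and BATF3 can recruit IRF4 or IRF8 to composite elements that hold an AP-1 site next to an IRF site. IRF4 and IRF8 bind DNA weakly alone and also pair with the ETS factors PU.1 and SPIB, while IRF1, IRF5, IRF7 and IRF9 carry interferon and pattern receptor signals. In tumours, BATF3 and IRF8 are known for the type 1 conventional dendritic cells (cDC1) that present tumour antigen to CD8 T cells, and BATF and IRF4 for effector and exhausted T cells.

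The mice were male C57BL/6, wild-type or ATPIF1 knock-out, and their flank tumours were taken on day 12 after implantation. The design text gives n = 6 without saying whether for each genotype, the tumours of a genotype were pooled, and CD45+ cells were sorted, so there was 1 RNA library per genotype and no replicate. Neither the construction of the knockout nor the cells that lack the protein are given in the sources used here. The design text speaks of a CD45+ T cell sort, whereas monocytes and macrophages were the most frequent gated cells in both libraries. With pooled animals and 1 library each, every interval below is a 95% interval of counting error only, no p-value exists for any difference between the libraries, and a genotype effect and a library effect cannot be told apart. ATPase inhibitory factor 1 (Atpif1) gave 576 counts per 1000000 UMIs (CPM) over all kept cells of the WT library and 679 CPM in the library labelled KO, so it was no lower there. A 5′ tag may lie outside the deleted part, so this checks neither the label nor the knockout.

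After filtering, 4370 cells of the WT library and 3211 of the library labelled KO were kept, with medians of 4314.5 and 4266 unique molecular identifiers (UMIs), and 3155 and 2542 of them entered a class. The 2 libraries shared 29 barcodes among the kept cells. Gated B cells numbered 334 and 38, plasmacytoid dendritic cells (pDC) 89 and 22, and checkpoint-positive CD8 T cells 29 and 157, so several classes are thin in 1 library. Gated neutrophils numbered 388 and 8 in the WT and KO-labelled libraries, and neutrophil markers summed to 168 and 22.9 CPM in naive-like CD8 T cells, which should lack them. Every lineage class held its own defining markers in both libraries. The gating on those markers ensured this, so it is no check of the classes. The cDC1 markers Xcr1, Clec9a, Snx22 and Cadm1 summed to 394 and 508 CPM in the cDC1 class. Classes among T cells rest on as little as 1 UMI of a subset marker, which leaves many T cells in the class "other T".

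Promoters of the members were searched because several of these genes are themselves interferon targets. RefSeq windows (build GRCm38.p6, 250 bases before the start site) were at hand for 8 of the 9 members, as 11 windows, with none for Batf2. The interferon gamma activated site, written TTCNNNGAA and searched on both strands, was found in 3 members, against 8.13% of 27025 genes. The stretches around the matches are shown for these 3 members, Batf3, Irf8 and Irf1, and are printed on the plus strand. Capitals mark the matches. This site reads the same on both strands, so a match has no strand of its own.
Batf3 at chr1:191098164-191098213: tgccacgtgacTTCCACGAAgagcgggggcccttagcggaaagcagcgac
Irf8 at chr8:120736157-120736243: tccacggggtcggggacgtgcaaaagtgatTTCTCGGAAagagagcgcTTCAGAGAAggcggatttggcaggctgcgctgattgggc
Irf1 at chr11:53769894-53769962: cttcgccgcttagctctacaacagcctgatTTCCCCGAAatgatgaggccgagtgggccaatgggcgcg
Irf8 held 2 matches, between 171 and 145 bases before its start site, the Irf1 match lay 90 to 82 bases before its start and the Batf3 match 239 to 231 bases before. The interferon-stimulated response element, searched on both strands as 2 copies of GAAA that stand 2 bases apart and present in 2.98% of 32851 windows, and the AP-1 site TGANTCA, present in 6.75%, were not found in these windows of any member. A match is a run of letters and was not tested as a bound site.

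The levels of most members followed cell lineage in both libraries. Irf8 was highest in pDC and cDC1, Batf3 in cDC1 and migratory dendritic cells, and Batf in T cell classes. Irf4 was highest in B cells, with pDC next in the WT library and regulatory T cells next in the other. Irf5 was myeloid, Irf7 was highest in Ly6c2 monocytes, and Irf9 was low and even. Irf1 was highest in a T cell class of each library, and pDC lay within the range of the T cell classes. The plot of levels by class shows the 2 libraries side by side.

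**Figure D1:**
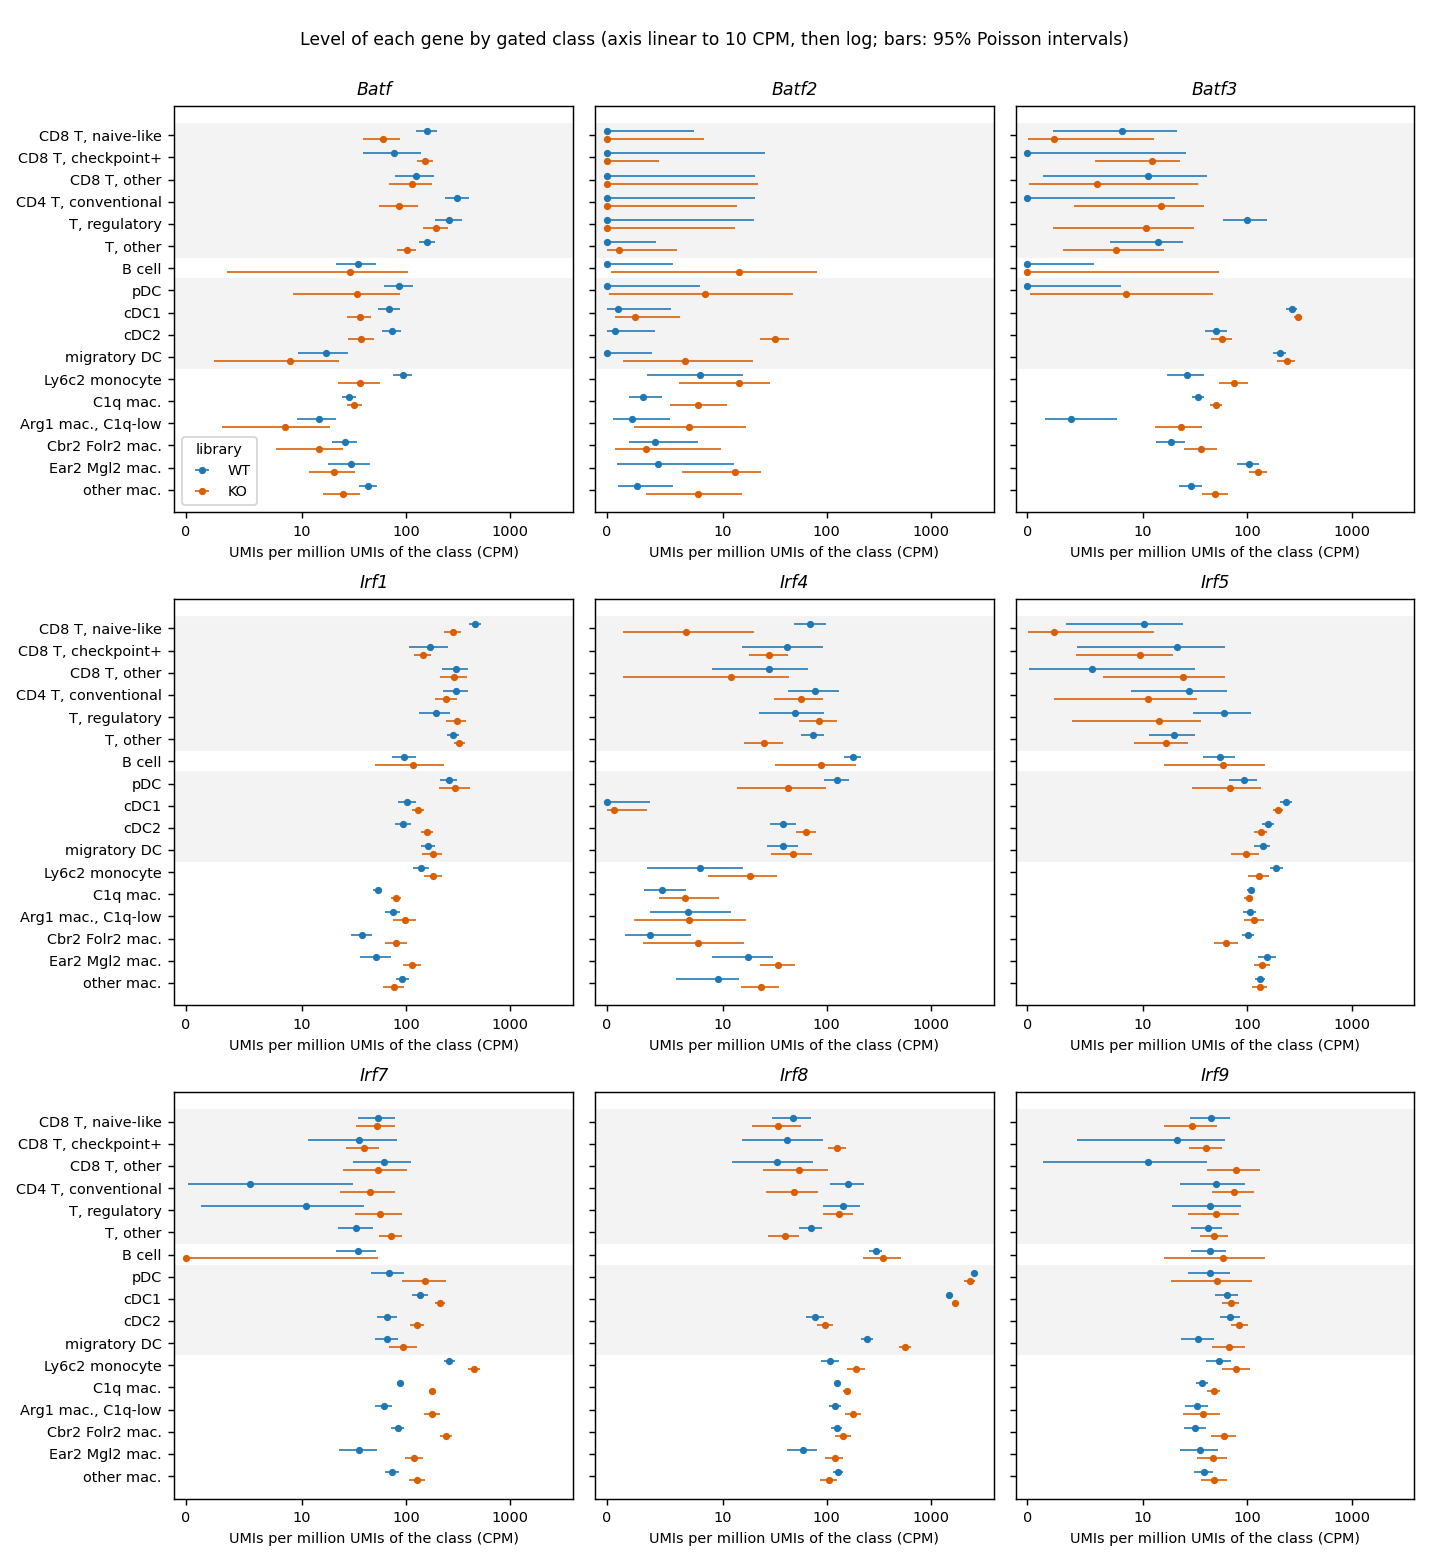
Level of each member, 1 panel per gene, in each of the 17 classes (rows) of the WT library (blue) and of the library labelled KO (orange), in CPM on an axis that is linear up to 10 CPM and logarithmic above it; points are levels and bars exact 95% Poisson intervals. The highest points are Irf8 in pDC, at 2559 and 2351 CPM, and in cDC1, at 1500 and 1692 CPM.

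Irf8, needed for the development of cDC1 and for the identity of pDC, was counted 5082 times in the classes of the WT library and 4855 times in those of the library labelled KO. Its level in pDC was 2559 CPM (2414 to 2710) in the WT library and 2351 CPM (2082 to 2645) in the other. In cDC1 it was 1500 CPM (1425 to 1578) and 1692 CPM (1629 to 1757). These 2 classes stood apart from each other and from all the rest beyond counting error in both libraries. B cells, where IRF8 acts with PU.1 in the germinal centre and early lineage, held 297 and 349 CPM, and migratory dendritic cells 246 and 564 CPM. The order of these 2 classes differed between the libraries, but they overlapped within each library, so that their order is not resolved.

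The cDC1 class alone held 56.2% of all gated Irf8 UMIs in the library labelled KO and 29.4% in the WT library. It numbered 140 and 86 cells in these libraries. After each cell was thinned to 1000 UMIs, 83.7% of WT cDC1 and 82.9% of KO-labelled cDC1 held an Irf8 UMI, and so did 83.1% and 77.3% of pDC. Unthinned, 98.8% and 99.3% of cDC1 held one. All T cells together, which hold little Irf8, gave 4.49% in both libraries after thinning, and cDC2, the conventional dendritic cells that present to CD4 T cells, gave 4.94% and 7.51%. Irf8 therefore separated cDC1 from cDC2 by level and by share of cells in both libraries.

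Cycling cDC1, taken as cells with any UMI of Mki67 or Top2a, held 1454 CPM of Irf8 in the WT library and 1477 CPM in the other. Non-cycling cDC1 held 1527 and 1809 CPM. The non-cycling cells of the library labelled KO were thus the highest of the 4 groups, and the WT groups overlapped each other.

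Irf4, which drives plasma cell and cDC2 programmes, was nearly absent from cDC1 and present in the other dendritic cell classes. It was at 0 of 997482 UMIs in WT cDC1 and at 1 of 1613378 UMIs in cDC1 labelled KO, where the 95% upper limits are 3.70 and 3.45 CPM. In cDC2 it reached 38.4 CPM (28.6 to 50.5) and 63.2 CPM (50.5 to 78.1), and in migratory dendritic cells 38.1 and 47.0 CPM. None of the 86 or 140 thinned cDC1 held an Irf4 UMI, which allows shares with a UMI of up to 3.49% and 2.14% by 3 counts and 4.20% and 2.60% by the Clopper-Pearson interval. The share of cDC2 was 3.70% (1.37 to 7.89) and 4.05% (1.64 to 8.16), and these intervals overlap those of cDC1. Depth therefore limits this comparison of shares, while the summed UMIs keep the levels of cDC1 and cDC2 apart.

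B cells held the most Irf4 in both libraries, at 177 CPM in the WT library and 87.2 CPM (32.0 to 190) in the other, the latter from 6 UMIs. They overlapped pDC at 125 CPM in the WT library, and in the other they overlapped regulatory T cells at 84.9 CPM and cDC2, so the first rank is not resolved in either. pDC labelled KO held 42.4 CPM from 5 UMIs. The share with an Irf4 UMI among thinned B cells was 14.1% (10.53 to 18.3) and 7.89% (1.66 to 21.4), and these intervals overlap. In WT pDC, 10 thinned cells held both Irf4 and Irf8, 64 held Irf8 alone and 2 held Irf4 alone. In WT B cells the same counts were 14, 69 and 33, so Irf4 alone was a larger part of the positive B cells than of the positive pDC.

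Batf3, the partner of IRF8 in cDC1, was at 267 CPM (236 to 301) in WT cDC1 and at 304 CPM (277 to 332) in cDC1 labelled KO. Migratory dendritic cells, which have matured and carry Fscn1 and Ccl22, held 204 CPM (177 to 235) and 237 CPM (194 to 287). The 2 classes did not overlap in the WT library and did in the other. Macrophages gated on Ear2 and Mgl2 came next, with 103 and 127 CPM, apart from C1q macrophages at 33.6 and 50.3 CPM. B cells held no Batf3 UMI in either library, which allows shares with a UMI of up to 0.898% of the 334 WT cells and 7.89% of the 38 others. This limits cells with a UMI, not cells that express the gene. Batf3 was thus shared by cDC1, mature dendritic cells and 1 macrophage class rather than restricted to cDC1.

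**Figure D2:**
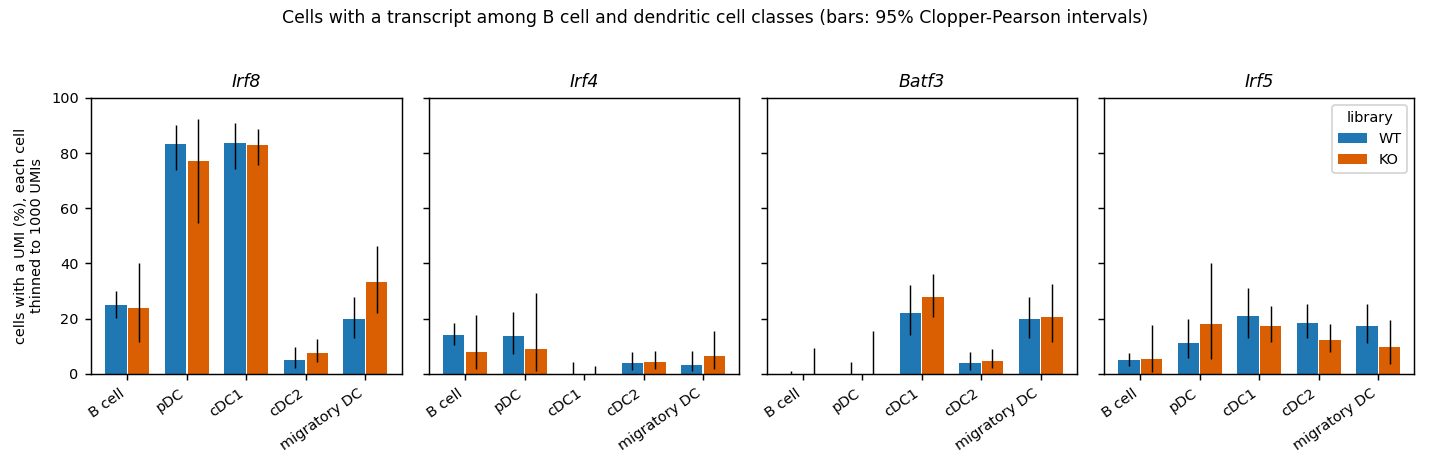
Share of cells with at least 1 UMI of Irf8, Irf4, Batf3 or Irf5 after thinning each cell to 1000 UMIs (percent, with Clopper-Pearson 95% intervals), in B cells and 4 dendritic cell classes of the WT library (blue) and the library labelled KO (orange). Irf8 reaches over 77% only in pDC and cDC1 of the classes drawn, and Irf4 is at 0 in cDC1 of both libraries.

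Batf, which supports effector CD4 and CD8 T cells, regulatory T cells and follicular helper T cells, was highest in T cells. In the WT library it was at 309 CPM in conventional CD4 T cells and 257 CPM in regulatory T cells, and the 2 overlapped. Of the library labelled KO, regulatory T cells were highest with 195 CPM, ahead of checkpoint-positive CD8 T cells with 152 CPM, again with overlap. Macrophage classes lay between 14.5 and 43.2 CPM in the WT library and between 8.57 and 31.9 CPM in the other.

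Batf2, an interferon-inducible relative studied in macrophages and dendritic cells, was scarce. It gave 52 UMIs in all classes of the WT library and 122 in those of the library labelled KO, and it had at least 20 UMIs over both libraries in 2 classes only. All T cells together held 0 Batf2 UMIs in the WT library and 1 in the other.

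Irf5, which signals downstream of Toll-like receptors, was present across myeloid cells. It was highest in cDC1, at 237 CPM (207 to 269) in the WT library and 198 CPM (177 to 221) in the other. All T cells together held 20.6 and 12.1 CPM, with 1.77% and 0.575% of thinned cells holding a UMI. WT Ly6c2 monocytes at 190 CPM overlapped cDC1, whereas in the library labelled KO cDC1 stood above every other class beyond counting error.

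Irf7, the master factor of type I interferon production and itself an interferon target, was highest in Ly6c2 monocytes of both libraries. Its level there was 260 CPM (229 to 294) in the WT library and 450 CPM (396 to 510) in the other, above every other class of the same library beyond counting error. In pDC, the cell type known for IRF7, it was at 67.9 and 153 CPM, from 31 and 18 UMIs. pDC were thus not the class with the highest Irf7 in either library.

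Irf1, induced by interferon gamma and needed for the development of CD8 T cells, was highest in WT naive-like CD8 T cells, at 457 CPM (399 to 522), apart from the next class. In the library labelled KO the class "other T" led with 324 CPM and overlapped regulatory T cells at 304 CPM. pDC held 256 CPM of Irf1 in the WT library and 297 CPM in the other. These levels lay above those of checkpoint-positive CD8 T cells, at 168 and 145 CPM. Irf9 ranged over classes from 11.2 to 68.6 CPM in the WT library and from 29.7 to 84.0 CPM in the other, and cDC2 held its highest level in both.

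Between the libraries, the members moved in different directions in different lineages. Of the 153 pairs of a member and a class, 117 had at least 20 UMIs over both libraries, and 35 of these (29.9%) were at least 1.5-fold higher in the library labelled KO. Over all genes of these classes, 13.6% of 96845 pairs were at least 1.5-fold higher. Another 21 pairs (17.9%) were at least 1.5-fold lower, against 12.4% over all genes. Irf7 accounted for 10 of the higher pairs and Batf for 11 of the lower ones. These counts use size alone, since a class with few UMIs passes 1.5-fold by counting error more easily, and pairs of the same library are not independent.

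**Figure D3:**
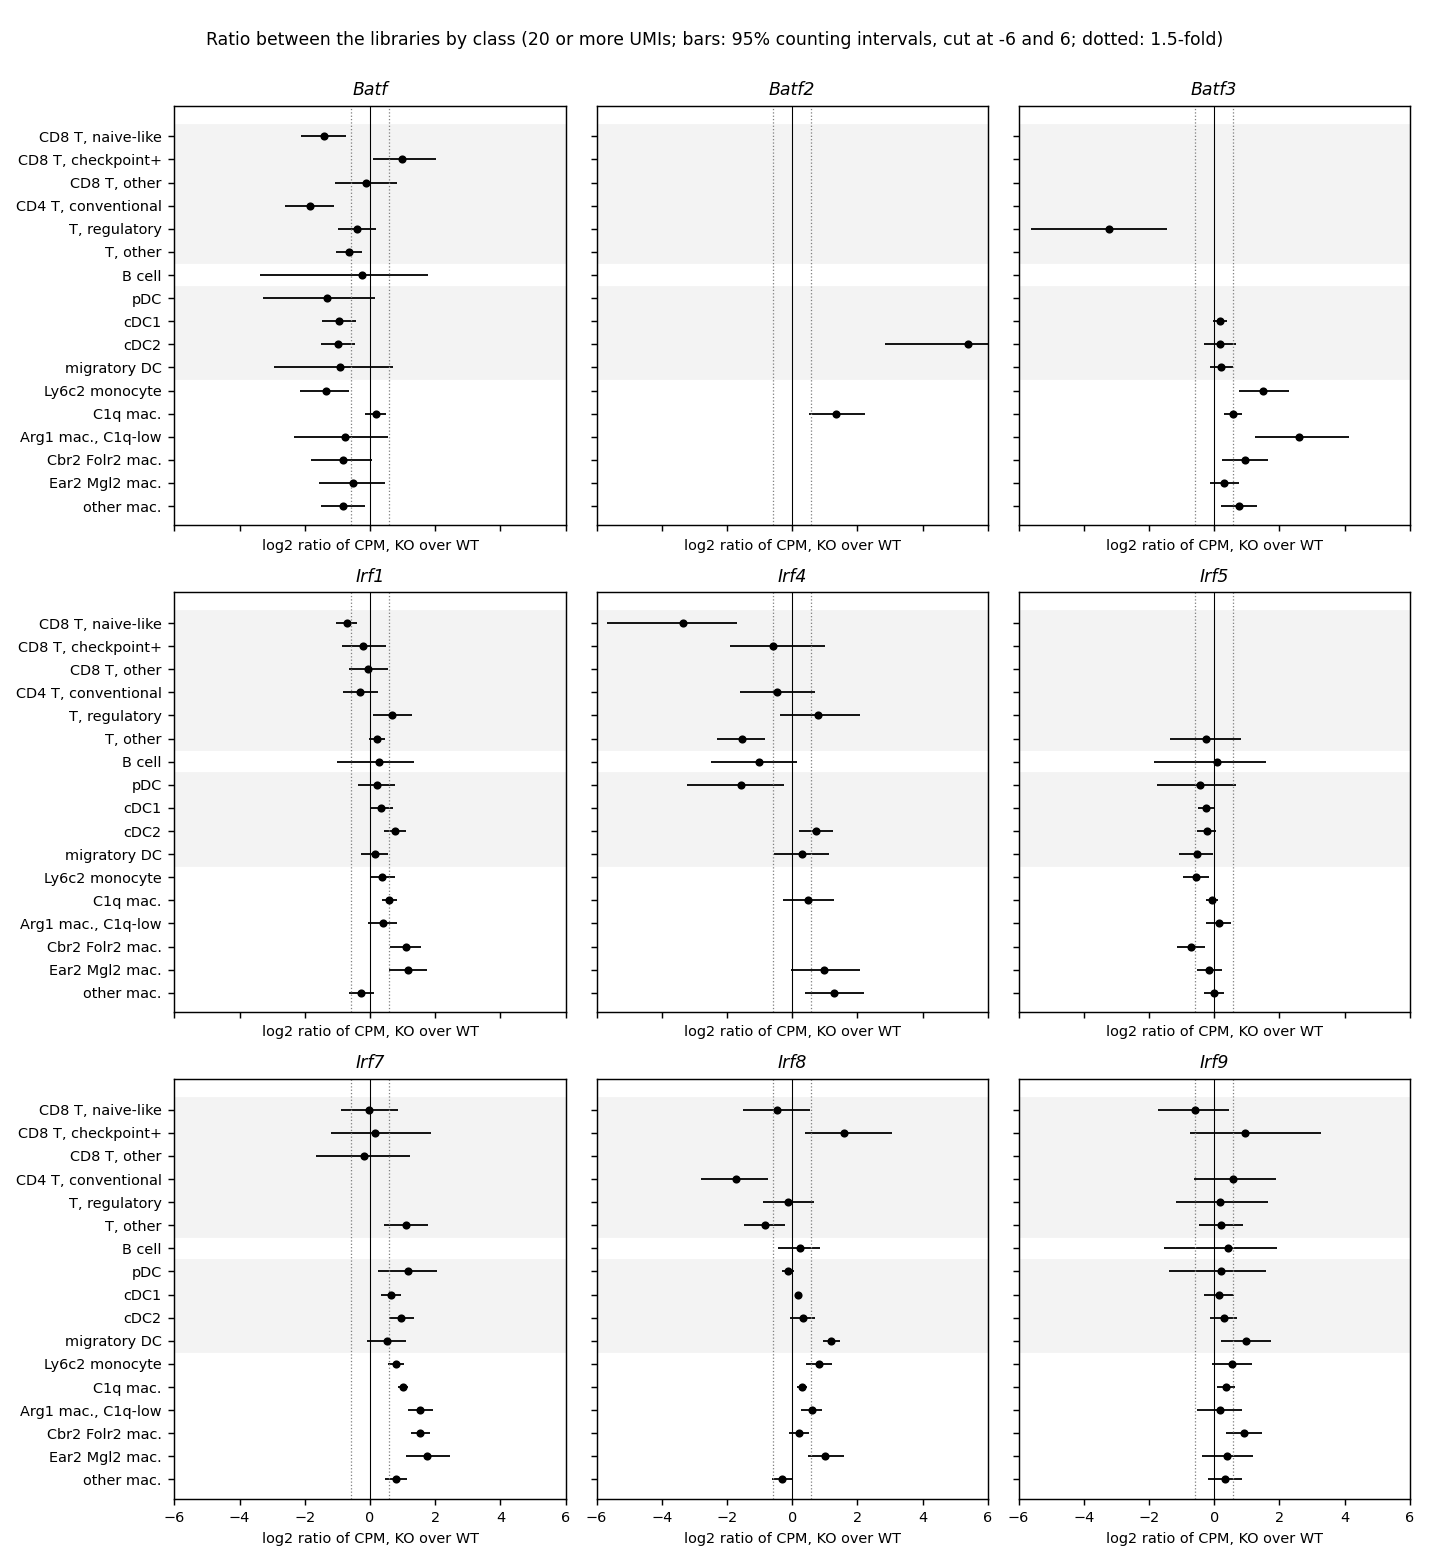
Log2 ratio of CPM, library labelled KO over WT library, for each member in each class with at least 20 UMIs, with exact 95% counting intervals; dotted lines mark 1.5-fold, and a pair with 0 UMIs in 1 library (Irf7 in B cells) is not drawn. Irf7 lies to the right in macrophage and dendritic cell classes, and Batf lies to the left in all but 2 of its 17 classes.

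By class, the counts of members at least 1.5-fold higher or lower stand beside the share of all genes of that class past the same fold. In naive-like CD8 T cells 0 of 6 measured members were higher and 4 were lower (13.4% and 11.1% of all genes). In checkpoint-positive CD8 T cells 3 of 6 were higher and 0 lower (29.6% and 13.3%), and in other CD8 T cells 0 of 3 were either (17% and 11.1%). Conventional CD4 T cells had 1 of 5 higher and 2 lower (18.1% and 10.2%). The T cell classes thus differed in direction. Regulatory T cells had 2 of 6 higher and 1 lower (12.7% and 15.5%), and the class "other T" had 1 of 7 higher and 3 lower (15.5% and 8.48%). B cells had 0 of 7 higher and 1 lower (19.3% and 23.2%), and pDC 1 of 7 higher and 2 lower (12.7% and 23.6%), both near or below the shares over all genes.

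Of the other dendritic cells, cDC1 had 1 of 7 higher and 1 lower (10.1% and 8.62%). cDC2 had 4 of 9 higher and 1 lower (9.35% and 9.36%), the 4 being Batf2, Irf1, Irf4 and Irf7. Migratory dendritic cells had 2 of 8 higher and 1 lower (13.9% and 17.1%). In macrophages the higher members outnumbered the lower ones in every class. C1q macrophages had 3 of 9 higher and 0 lower (7.4% and 7.53%), and Ly6c2 monocytes 3 of 7 higher and 1 lower (15.1% and 13.4%). The Arg1 class had 3 of 7 higher and 1 lower (17.5% and 12.1%), and macrophages gated on Cbr2 and Folr2 had 4 of 7 higher and 2 lower (11.7% and 14.7%). Macrophages gated on Ear2 and Mgl2 had 4 of 8 higher and 0 lower (13.8% and 11.3%), and the remaining macrophages 3 of 8 higher and 1 lower (9.69% and 12.1%).

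Irf7 was higher in all 6 monocyte and macrophage classes of the library labelled KO. In C1q macrophages, which carry complement C1q, it was at 88.2 CPM (81.1 to 95.7) in the WT library and 176 CPM (164 to 190) in the other, and the log2 ratio was 1.00 (0.84 to 1.16). In macrophages gated on Cbr2 and Folr2, markers of resident macrophages, it was at 82.9 and 242 CPM, and the log2 ratio was 1.54 (1.25 to 1.84). The intervals of the levels do not overlap in either class. The share of thinned C1q macrophages with an Irf7 UMI was 7.86% (5.97 to 10.1) and 16.3% (13.4 to 19.5), and unthinned it was 24.1% and 43.9%, so more cells held the transcript. B cells gave 3.89% of thinned cells in the WT library, where the empty droplets held 66.5 CPM of Irf7, and 0 of 38 cells in the other, which allows up to 7.89%, where they held 131 CPM.

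The other macrophage classes lay in the same direction. The log2 ratio of Irf7 was 0.79 (0.54 to 1.05) in Ly6c2 monocytes, 1.54 (1.17 to 1.92) in macrophages with Arg1 and little C1q, 1.76 (1.10 to 2.46) in macrophages gated on Ear2 and Mgl2 and 0.80 (0.46 to 1.14) in the remaining macrophages. With the Leiden clusters in place of the gates, the value for the Arg1 class was 0.45, and for C1q macrophages it was 1.13.

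Dendritic cells had more Irf7 in the library labelled KO as well. cDC2 held 65.5 and 126 CPM, and the log2 ratio was 0.95 (0.57 to 1.34). cDC1 held 136 and 212 CPM, with a log2 ratio of 0.64 (0.35 to 0.93). One WT cDC1 cell carried 50 of the 136 Irf7 UMIs, and without the top cell of each library the log2 ratio was 0.98. One WT migratory dendritic cell carried 44 of 62 Irf7 UMIs, and there the levels of 65.7 and 94.1 CPM gave a log2 ratio of 0.52 (-0.08 to 1.11) that became 2.09 without the top cells. Single cells with many Irf7 UMIs thus held much of the WT signal in these classes.

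In CD8 T cells Irf7 was within 1.5-fold. Naive-like CD8 T cells held 53.3 and 52.6 CPM, with a log2 ratio of -0.021 (-0.90 to 0.85), and checkpoint-positive CD8 T cells 35 and 39.0 CPM, with 0.16 (-1.21 to 1.87). Without the top cell of each library the first value was 0.31. Over all CD8 T cells the levels of 51.9 and 44.9 CPM gave -0.21 (-0.79 to 0.39), an interval that lies below the Irf7 values of the 6 monocyte and macrophage classes. The difference between classes was not tested. In "other T", 33.4 and 71.1 CPM gave a log2 ratio of 1.09 (0.44 to 1.78). Conventional CD4 T cells held 1 and 12 Irf7 UMIs, with 3.02 (0.27 to 8.44), and regulatory T cells 2 and 16, with 2.37 (0.28 to 5.54). Both lay in the same direction but had under 20 UMIs, so they were not counted.

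Genes downstream of type I interferon and of the complex that holds IRF9 were taken as a list of 22 genes. In C1q macrophages all 22 had at least 20 UMIs, 19 were at least 1.5-fold higher in the library labelled KO and 0 lower, with a median log2 ratio of 1.09, and the median of all genes was -0.0064. Ifit1, an RNA-binding antiviral protein, was at 13.5 and 53.6 CPM and Usp18, which dampens the receptor, at 10.4 and 34.7 CPM, the 2 highest log2 ratios at 1.99 and 1.74. The receptor chain Ifnar1 at 73.6 and 70.3 CPM and the kinase Jak1 at 100.4 and 91.5 CPM had the 2 lowest, at -0.066 and -0.13. Of the 22 genes, 19 were thus higher, while Ifnar1 and Jak1 were level. The list also holds the receptor chain Ifnar2 and the kinase Tyk2, whose levels are not described here. In cDC1, 12 of 18 measured genes were higher and 0 lower, with a median of 0.96. Oas1a had 2 and 29 UMIs, with a log2 ratio of 3.16 (1.18 to 6.28), and Ifit2 had 4 and 50 UMIs, with 2.95 (1.5 to 4.88), while Ifih1 at -0.35 and Jak1 at -0.31 were lowest. In naive-like CD8 T cells 1 of 15 was higher and 4 were lower, with a median of 0.019.

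In each of the 6 monocyte and macrophage classes the log2 ratio of Irf9 itself lay below the median of this list. In C1q macrophages it was at 36.7 and 47.7 CPM, and the log2 ratio was 0.38 (0.10 to 0.65), and in macrophages gated on Cbr2 and Folr2 at 31.5 and 59.6 CPM, with 0.92 (0.37 to 1.46). Of its 16 measured classes, 4 were at least 1.5-fold higher and 1 lower, and 3 of the 16 intervals lay above 0. Migratory dendritic cells were at 0.99 beside a list median of 0.46, checkpoint-positive CD8 T cells at 0.94 beside 0.06 and conventional CD4 T cells at 0.59 beside 0.23. Of those 5 classes past 1.5-fold, 3 turned direction: thinning gave -0.047 in migratory dendritic cells and 0.86 in naive-like CD8 T cells, and cells of at least 2000 UMIs and 800 genes gave -0.38 in conventional CD4 T cells.

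**Figure D4:**
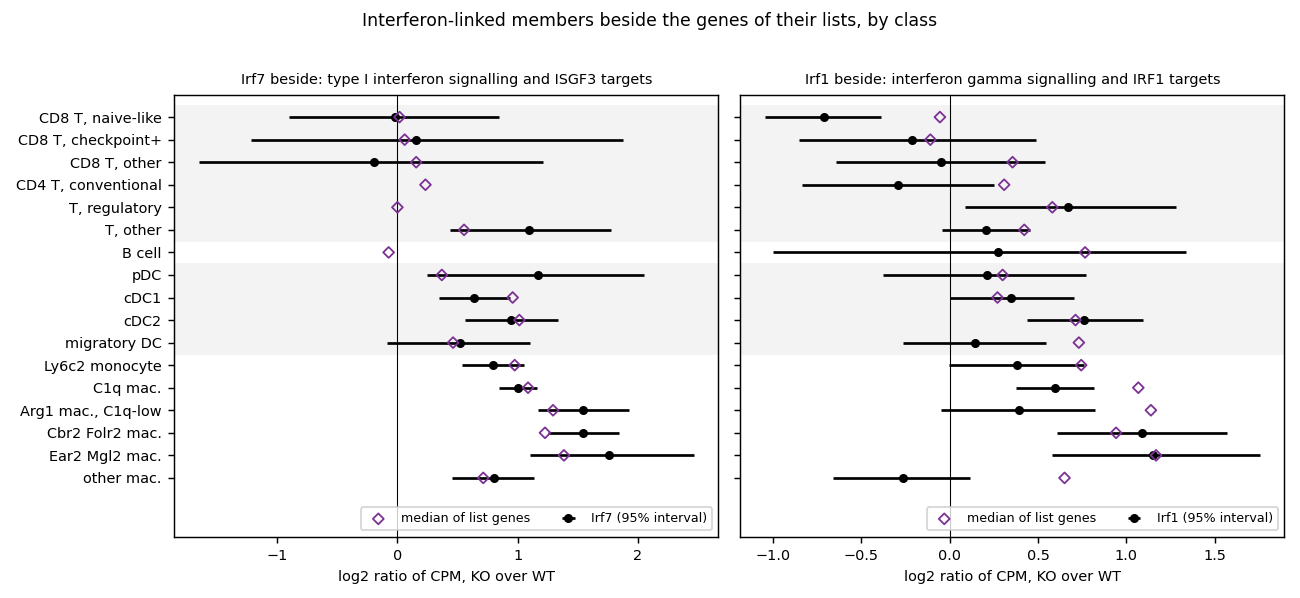
Log2 ratio of CPM, library labelled KO over WT library, of Irf7 (left) and Irf1 (right) with 95% counting intervals, beside the median log2 ratio of the genes of the matching interferon list, by class. In C1q macrophages Irf7 is at 1.00 beside a list median of 1.09, and Irf1 at 0.60 beside a list median of 1.07.

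Irf1 was at least 1.5-fold higher in cDC2, regulatory T cells and 3 macrophage classes of the library labelled KO, and lower in naive-like CD8 T cells. In C1q macrophages it was at 53.3 CPM (47.8 to 59.3) and 80.6 CPM (72.3 to 89.5), and the log2 ratio was 0.60 (0.38 to 0.82). Macrophages gated on Ear2 and Mgl2 held 51.3 and 114 CPM, with 1.15 (0.58 to 1.75), and cDC2 94.2 and 160 CPM, with 0.76 (0.44 to 1.09). Naive-like CD8 T cells held 457 and 279 CPM, and the log2 ratio was -0.71 (-1.04 to -0.39). In each of these 4 classes the log2 interval lay clear of 0.

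The list of 20 genes of interferon gamma signalling holds many targets of IRF1. Its median log2 ratio lay between 0.65 and 1.17 in the monocyte and macrophage classes, whereas Irf1 was not higher in every one of them. In C1q macrophages 18 of 20 measured genes were at least 1.5-fold higher and 0 lower, with a median log2 ratio of 1.07. Cxcl9, a chemokine that attracts CXCR3-bearing T cells, was at 3.1 CPM in the WT library and 189 CPM in the other, and the log2 ratio was 5.93 (5.29 to 6.65). Gbp4, a guanylate-binding protein, was at 1.86 and 17.7 CPM, with 3.25 (2.36 to 4.26). The receptor chains were at the low end, with 0.17 for Ifngr1 and -0.019 for Ifngr2. In the remaining macrophages 11 of 18 list genes were higher and 0 lower, with a median of 0.65, while Irf1 was at 92.1 and 76.6 CPM, with -0.27 (-0.66 to 0.12). In naive-like CD8 T cells 4 of 15 genes were higher and 5 lower, with a median of -0.055. Both interferon lists were part of earlier descriptions of these libraries and lend no independent weight to the direction of the members.

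Batf3 was higher in 4 of the macrophage classes of the library labelled KO. It was at 26.1 and 74.5 CPM in Ly6c2 monocytes, and the log2 ratio was 1.51 (0.77 to 2.28). In the Arg1 class it was at 3.76 and 22.8 CPM, from 7 and 16 UMIs, with 2.60 (1.24 to 4.13), and the Leiden clusters gave 0.35 for the monocytes and 0.71 for the Arg1 class. In cDC1, where it is most abundant, the log2 ratio was 0.19 (-0.031 to 0.41). The shift of Batf3 thus lay in cells where its level is low.

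Batf2 differed most in cDC2. It was at 1 UMI of 1327444 in the WT library, in 1 of 162 cells, and at 43 UMIs of 1345710 in the library labelled KO, spread over 17 of 173 cells with at most 8 in 1 cell. The levels of 0.753 CPM (0.0191 to 4.20) and 32.0 CPM (23.1 to 43.0) gave a log2 ratio of 5.41 (2.85 to 10.7). The upper bound of the WT level lies below the lower bound of the other. C1q macrophages held 3.1 and 7.92 CPM, with a log2 ratio of 1.35 (0.51 to 2.23). After thinning, 0 of 162 and 3 of 173 cDC2 held a Batf2 UMI, too few to compare.

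Irf5 was the flattest of the members measured in over 10 classes. Its log2 ratio lay between -0.70 and 0.14 in 12 measured classes, with 0 at least 1.5-fold higher and 1 lower. That class was the macrophages gated on Cbr2 and Folr2, at 102 and 63.0 CPM, with -0.70 (-1.15 to -0.27), and thinning gave 0.20 there. Ly6c2 monocytes held 190 and 129 CPM, with -0.56 (-0.97 to -0.16). Of 16 genes of nucleic acid sensing upstream of IRF5 and IRF7, 2 were at least 1.5-fold higher in C1q macrophages and 0 lower, with a median of 0.10: the adaptor gene Tmem173 was at 23.4 and 42.1 CPM and the kinase gene Ikbke at 25.9 and 44.5 CPM, while Tlr7 at 25.6 and 18.6 CPM and Traf6 at 14.3 and 12.1 CPM had the lowest ratios.

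Irf8 was within 1.5-fold between the libraries in pDC, cDC1 and B cells. The log2 ratio was -0.12 (-0.32 to 0.07) in pDC, 0.17 (0.08 to 0.27) in cDC1 and 0.23 (-0.44 to 0.85) in B cells. Migratory dendritic cells differed, with 246 CPM (215 to 280) in the WT library and 564 CPM (497 to 639) in the other, and the log2 ratio was 1.20 (0.94 to 1.46). The share of thinned migratory dendritic cells with a UMI was 19.7% (13.0 to 27.8) and 33.3% (22.0 to 46.3), and these intervals overlap, as do the unthinned shares of 53.3% and 57.1%. Only the summed level separates the 2 libraries. With a gate that asked for more marker UMIs the log2 ratio was 0.88. Summed melanoma markers in the same class were 1053 CPM in the WT library and 16.1 CPM in the other, and their part in the result was not tested. Irf8 was also at least 1.5-fold higher in Arg1 C1q-low macrophages, at 0.59, where Leiden clusters gave -0.75.

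Of 12 other dendritic cell lineage factors, all measured in cDC1, 0 were at least 1.5-fold higher and 1 lower, with a median log2 ratio of 0.18. That 1 was Zeb2, a factor of pDC and cDC2, at 17 and 3.1 CPM from 17 and 5 UMIs. The other named ends of the list were Tcf4 at -0.32, Bcl11a at 0.54 and Notch2 at 0.53. In cDC2, 1 of 12 was higher and 0 lower, with a median of 0.030, Mycl at 0.66 and Zbtb46 at 0.52 being highest and Nfil3 at -0.47 and Tcf4 at -0.24 lowest. Of 13 partners of IRF4 and IRF8, 10 were measured in cDC2, with 0 higher and 1 lower, Relb, at 66.3 and 40.1 CPM. Stat3 at -0.51 was next, and Spib at 0.33 and Nfatc2 at 0.25 were highest. Over all genes, 10.1% were at least 1.5-fold higher and 8.62% lower in cDC1, and 9.35% and 9.36% in cDC2. The dendritic cell factors around the members were thus mostly within 1.5-fold in these classes, as were most genes.

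Irf4 was at least 1.5-fold higher in 4 classes of the library labelled KO, cDC2, regulatory T cells and 2 macrophage classes, and lower in another 4, naive-like CD8 T cells, other T cells, B cells and pDC. Naive-like CD8 T cells held 69.7 CPM (48.3 to 97.5) in the WT library and 6.86 CPM (1.41 to 20.04) in the other, from 34 and 3 UMIs, and the log2 ratio was -3.35 (-5.69 to -1.68). "Other T" held 73.7 and 25.2 CPM, with -1.55 (-2.30 to -0.84). These levels do not overlap in either class. In cDC2 the log2 ratio was 0.72 (0.20 to 1.25), but thinning gave -0.095. After thinning 6 of 162 and 7 of 173 cDC2 held an Irf4 UMI, too few to resolve the direction there. In regulatory T cells the log2 ratio was 0.79 (-0.37 to 2.08). It turned to -1.91 with thinning, where 2 of 36 and 1 of 45 cells held a UMI, and to -0.17 without T cells of 5 or more Cd74 UMIs. In pDC it was -1.56 (-3.23 to -0.25), from 57 and 5 UMIs.

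Batf was lower in most classes of the library labelled KO, 11 of 17, and higher in checkpoint-positive CD8 T cells. Naive-like CD8 T cells held 158 CPM (125 to 197) and 59.4 CPM (38.8 to 87.1), and the log2 ratio was -1.41 (-2.11 to -0.75). Conventional CD4 T cells held 309 CPM (233 to 401) and 86.0 CPM (54.5 to 129), with -1.85 (-2.61 to -1.12). Ly6c2 monocytes held 93.3 and 36.3 CPM, with -1.36 (-2.14 to -0.65), and neither these nor the T cell levels overlap. In WT conventional CD4 T cells 1 cell held 16 of the 56 UMIs, and without the top cells the log2 ratio was -1.78. Of the 11 lower classes, 2 turned direction: free RNA subtraction gave 0.28 in migratory dendritic cells and thinning 0.51 in Cbr2 Folr2 macrophages.

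Both conventional dendritic cell classes followed the same direction for Batf. The log2 ratio was -0.94 (-1.47 to -0.42) in cDC1 and -0.98 (-1.50 to -0.47) in cDC2, from 69.2 and 35.9 CPM and from 73.1 and 37.2 CPM. In C1q macrophages the levels of 28.4 and 31.9 CPM gave 0.17 (-0.16 to 0.50).

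Checkpoint-positive CD8 T cells carry Pdcd1, Lag3, Havcr2 or Tigit. Batf was at 76.9 CPM (38.4 to 138) there in the WT library, from 11 UMIs in 29 cells, and at 152 CPM (127 to 182) in the other, and the log2 ratio was 0.99 (0.10 to 2.03). Irf8, a myeloid and B cell factor that effector CD8 T cells can also express, was at 42.0 CPM (15.4 to 91.4) and 126 CPM (103 to 152), with 1.58 (0.41 to 3.06). The levels of Irf8 do not overlap and those of Batf overlap slightly. The makeup of this class differed between the libraries: naive-like T cell markers summed to 651 and 180 CPM, checkpoint markers to 315 and 629 CPM, and Cd74 was at 2980 and 1008 CPM. Cycling cells were 4 of 29 and 43 of 157, and the non-cycling cells held 73.5 and 137 CPM of Batf and 21 and 115 CPM of Irf8. Without cells of 5 or more Cd74 UMIs the log2 ratio was 0.70 for Batf and 2.49 for Irf8. The part of the makeup in these differences was not otherwise tested. A level at least 1.5-fold higher is common in this class, as the share over all genes above shows.

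The 4 lower members of naive-like CD8 T cells were Batf, Irf1, Irf4 and Irf9, the last from 22 and 13 UMIs with a log2 ratio of -0.60 (-1.71 to 0.45) that turned to 0.86 with thinning. Cd74, an antigen presentation gene of B cells and myeloid cells, was at 1957 and 258 CPM in this class, and 10 of 134 and 4 of 148 cells held at least 5 UMIs of it. Without those cells the log2 ratios were -3.84 for Irf4, -1.39 for Batf and -0.73 for Irf1, about as large as with them.

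Members can also rest on a single T cell. In WT conventional CD4 T cells 20 of 29 Irf8 UMIs lay in 1 cell of 34084 UMIs, and the log2 ratio of -1.72 became -0.81 without the top cells. In WT regulatory T cells 13 of 18 Batf3 UMIs lay in 1 cell, and the level of 98.3 CPM became 29.2 CPM without it, against 10.6 CPM in the other library. These values describe single cells more than classes.

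The AP-1 genes around BATF had median log2 ratios below 0 in the 2 CD8 T cell classes described here. The medians were 0.093 in other CD8 T cells and 0.24 in conventional CD4 T cells. Medians below 0 were not particular to CD8 T cells: B cells were at -0.61, migratory dendritic cells at -0.58 and Arg1 C1q-low macrophages at -0.38. Other classes lay above 0, such as pDC at 0.46 and Cbr2 Folr2 macrophages at 0.49. Over all genes, 13.4% were higher and 11.1% lower in naive-like CD8 T cells, and 29.6% and 13.3% in checkpoint-positive ones. Of 12 AP-1 partners and relatives, 9 were measured in naive-like CD8 T cells, of which 1 was at least 1.5-fold higher and 3 lower, and their median log2 ratio was -0.57. Jun, the usual partner, was at 782 and 455 CPM and Mafk at 55.4 and 25.1 CPM, the 2 lowest, while Fosb was at 113 and 235 CPM and Fos at 517 and 604 CPM. In checkpoint-positive CD8 T cells 0 of 10 were higher and 7 lower, with a median of -0.83, led by Maff at 161 and 17.1 CPM and Mafk at 63.0 and 20.7 CPM. Fosb at -0.056 and Jun at -0.46 had the highest log2 ratios. These 2 did not pass 1.5-fold, so the lower genes of this class do not include Jun.

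Among 14 effector T cell genes bound by BATF and IRF4, 9 were measured in checkpoint-positive CD8 T cells, with 4 at least 1.5-fold higher, 1 lower and a median of 0.45. Ctla4, an inhibitory receptor, was at 42.0 and 171 CPM, and Maf at 21 and 65.8 CPM. Gata3 was at 76.9 and 43.9 CPM and Prdm1 at 35 and 28.0 CPM. In regulatory T cells 2 of 10 were higher and 2 lower, with a median of -0.48: Ctla4 was at 399 and 906 CPM, Maf at 191 and 333 CPM, Il2ra at 344 and 198 CPM and Ccr8 at 120 and 77.8 CPM. Several of these genes, Ctla4 among them, follow checkpoint status, on which the CD8 class was gated. Over all genes, 29.6% were higher and 13.3% lower in checkpoint-positive CD8 T cells, and 12.7% and 15.5% in regulatory T cells. The counts in regulatory T cells are near these shares.

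Pooled myeloid and T cells differed in the same way. Over all monocytes and macrophages 4 of 9 members were at least 1.5-fold higher in the library labelled KO and 0 lower, where 6.35% of all genes were higher and 7.49% lower. Those 4 were Batf2, Batf3, Irf4 and Irf7, with log2 ratios of 1.26, 0.92, 0.95 and 1.06. Over all T cells 0 of 8 measured members were higher and 3 lower, where 16.7% of all genes were higher and 6.24% lower, and the 3 were Batf3 at -0.97, Irf4 at -1.05 and Irf5 at -0.76. The value of Batf3 rests on 36 WT and 26 KO-labelled UMIs, and 13 of the 36 lay in 1 regulatory T cell. A pool mixes its classes in different proportions, with 29 and 157 checkpoint-positive CD8 T cells in the 2 libraries, so its ratio holds the makeup as well as the level.

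Across the 34 points of 17 classes in 2 libraries, genes were ranked by Pearson's r with each member on log2(CPM + 10), as a description. The points share libraries, depth and free RNA, and classes of 1 lineage resemble each other. Irf7 was most like Oasl1, Phf11d and Trafd1, with r of 0.84, 0.81 and 0.81. Irf5 was most like Skap2, Spi1 and Rassf4 (0.93, 0.92 and 0.89), and Irf8 most like Pafah1b3, St8sia4 and P2ry14 (0.87, 0.82 and 0.82). Batf3 was most like Tmsb4x, Actb and Cst3 (0.88, 0.87 and 0.86), and Batf2 most like Rnf213, Myadm and Oasl2, each at 0.68. Batf was most like Eif3h, Il18r1 and Gstp3, each at 0.83, Irf1 most like Uqcrh, Tagap and Smad7 (0.84, 0.84 and 0.83), Irf4 most like Kmt2e, Senp6 and Il21r (0.76, 0.76 and 0.75), and Irf9 most like Cpsf3, Napsa and Pip4k2a (0.69, 0.65 and 0.62). Among the members themselves, r was 0.64 for Batf with Irf1 and for Batf3 with Irf5, 0.28 for Batf3 with Irf8, and -0.67 for Irf1 with Irf5.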

How the data were processed

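The authors deposited raw UMI count matrices of 2 RNA libraries (10x 5′ chemistry), made with Cell Ranger 3.1.0 on build mm10 per the submitters' processing notes. The paired T cell receptor libraries were not used here. Barcodes with at least 1000 UMIs, at least 500 genes and at most 10% mitochondrial UMIs were kept, and cells were gated on marker UMIs, a lineage needing 3 times the UMIs of any other. No doublet caller was run in the main analysis, and of the 153 WT and 82 KO-labelled cells with the highest doublet scores 83 and 45 were in classes. UMIs were summed per class and library and divided by all UMIs of the class (CPM), with exact Poisson intervals. Log2 ratios have exact conditional binomial intervals. Shares used cells thinned to 1000 UMIs. Intervals and limits cover counting error only, and a count of 0 allows up to 3 counts. Libraries held 35152477 (WT) and 24385843 (KO) UMIs.

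All 9 members are named. For lists of pathway genes in the classes where members are described, the 2 highest and 2 lowest log2 ratios among genes with 20 UMIs are named, and for likeness the 3 genes of highest r with at least 50 CPM in a class. The members and lists were chosen with earlier results of these data known. The ratio and interval were tested on simulated data. Python 3.11.15, numpy 2.4.6 and scipy 1.17.1 were used. Alternatives covered cell filters, gates, Leiden clusters, doublet scores, size factors, free RNA (profile of droplets with 10 to 100 UMIs), cell weighting and thinning. Chosen after seeing the data were leaving out the cell with most UMIs of a member, and T cells with 5 or more Cd74 UMIs.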

Additional observations from a re-analysis of the deposited data

Results flagged for a closer look

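For 5 members, the log2 ratio of CPM (library labelled KO over WT library) lay above 0 in some classes and below 0 in others, with a size of at least 1.5-fold and a counting interval clear of 0 in each. With 1 library per genotype the difference between classes was not tested, and the classes share their library.

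Batf was higher in checkpoint-positive CD8 T cells, at 0.99. It was lower in naive-like CD8 T cells at -1.41, conventional CD4 T cells at -1.85, other T cells at -0.64, cDC1 at -0.94, cDC2 at -0.98, Ly6c2 monocytes at -1.36 and other macrophages at -0.82.

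Batf3 was higher in Ly6c2 monocytes at 1.51, Arg1 C1q-low macrophages at 2.60, Cbr2 Folr2 macrophages at 0.96 and other macrophages at 0.77, and lower in regulatory T cells at -3.21. The last value rests on 18 WT UMIs, 13 of them in 1 cell.

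Irf1 was higher in regulatory T cells at 0.67, cDC2 at 0.76, C1q macrophages at 0.60, Cbr2 Folr2 macrophages at 1.09 and Ear2 Mgl2 macrophages at 1.15, and lower in naive-like CD8 T cells at -0.71.

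Irf4 was higher in cDC2 at 0.72 and other macrophages at 1.30, and lower in naive-like CD8 T cells at -3.35, other T cells at -1.55 and pDC at -1.56. Thinning gave -0.095 in cDC2, where 6 of 162 and 7 of 173 cells then held an Irf4 UMI.

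Irf8 was higher in checkpoint-positive CD8 T cells at 1.58, migratory dendritic cells at 1.20, Ly6c2 monocytes at 0.83, Arg1 C1q-low macrophages at 0.59 and Ear2 Mgl2 macrophages at 1.02, and lower in conventional CD4 T cells at -1.72 and other T cells at -0.83. In Ly6c2 monocytes 33 of 105 KO-labelled UMIs lay in 1 cell, and without the top cells the log2 ratio was 0.38. In Arg1 C1q-low macrophages the Leiden clusters gave -0.75.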

How the results depend on the processing

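No paired analysis was possible because each genotype has 1 library. Of 1371 log2 ratios recomputed over 13 alternatives, 10 turned the direction of a pair past 1.5-fold. Of the rest, 1297 stayed within the counting interval of the reported value and 64 left it, and changes of sign in pairs under 1.5-fold were not counted. Thinning to 1000 UMIs gave 0.86 for Irf9 in naive-like CD8 T cells, -1.91 for Irf4 in regulatory T cells, -0.095 for Irf4 in cDC2, -0.047 for Irf9 in migratory dendritic cells, and 0.51 for Batf and 0.20 for Irf5 in Cbr2 Folr2 macrophages. Several of these thinned values rest on few cells with a UMI, such as 6 and 7 cDC2 for Irf4 and 5 and 3 migratory dendritic cells for Irf9. Leaving out T cells with 5 or more Cd74 UMIs gave -0.17 for Irf4 in regulatory T cells. Cells of at least 2000 UMIs and 800 genes gave -0.38 for Irf9 in conventional CD4 T cells, free RNA subtraction 0.28 for Batf in migratory dendritic cells, and Leiden clusters -0.75 for Irf8 in Arg1 C1q-low macrophages. Pairs at least 1.5-fold higher numbered 22 in place of 35 and lower ones 13 in place of 21 with Leiden clusters, where 76 pairs were measured, and 21 and 10 after thinning, where 60 were. A fold of 2 left 16 higher and 10 lower. With a pseudocount of 1 CPM, 16 of the 27 genes most like the members were shared with the main ranking. The causes were not tested beyond the smaller numbers of pairs.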
